A study of Mus musculus with 6 samples.

Results

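The common gamma-chain cytokine receptor genes were followed across the cell types of mouse skin in animals with and without a deletion of the enhancer upstream of Il2ra. They are 8 of the 32285 genes measured, picked by symbol: Il2ra, Il2rb, Il2rg, Il15ra, Il7r, Il4ra, Il21r and Il9r. Each of the 8 was detected in all 6 libraries. RNA of single cells was counted in droplets with a 10x Genomics 5' kit, from whole skin after the hypodermis had been scraped away. The groups were UP_Del_Alopecia (enhancer deletion, with hair loss), UP_Del_No_Alopecia (enhancer deletion, without hair loss) and WT (C57BL/6), all female, untreated and 17 to 18 weeks of age. For every group the live cells were split by sorting into a CD45+ library (leukocytes) and a CD45- library (keratinocytes and stroma). Groups were read from the sample titles, since the genotype label gives the C57/BL6 background for every sample, and the labels do not say how many mice stand behind a library. The deletion was the same in both UP_Del groups as far as the labels say, so their comparison sets hair loss against no hair loss within 1 genotype.

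Interleukins 2, 4, 7, 9, 15 and 21 share the receptor chain encoded by Il2rg, the common gamma chain. Each pairs it with a private chain, and interleukins 2 and 15 add Il2rb to it. Il2ra (CD25) turns the Il2rb and Il2rg pair into the high-affinity receptor for interleukin 2, on which regulatory T cells depend. Signals pass through the kinases Jak1 and Jak3 to STAT factors, and in skin interleukins 7 and 15 maintain resident lymphocytes.

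After cell filtering, the CD45+ libraries held 8837 (UP_Del_Alopecia), 3233 (UP_Del_No_Alopecia) and 6307 (WT) cells with 45438429, 19539698 and 36304803 unique molecular identifiers (UMIs, counted RNA molecules). The CD45- libraries held 4755, 14362 and 3270 cells in the same order, with 36709814, 100321488 and 23270527 UMIs. With 1 library per group and sort, no difference has a replicate check and no test was run. Levels are UMIs summed over the cells of a class, given as CPM of all UMIs in those cells. Intervals (95%, exact Poisson for levels and conditional binomial for ratios) cover counting error only, and a ratio is called higher or lower at 1.5-fold or more, which is 0.58 on the log2 scale. Class names end in "-like" because they rest on marker genes, and clusters without enough markers keep a number. Any 2 libraries shared between 24 and 228 cell barcodes, which is 0.719% to 2.58% of the smaller library. Ptprc, which encodes CD45, stood at 717, 657 and 790 CPM among CD45+ cells, against 0.409, 0.110 and 1.07 CPM among CD45- cells (UP_Del_Alopecia, UP_Del_No_Alopecia and WT). Fibroblast-like cells still made up 2.07%, 7.67% and 1.52% of the CD45+ cells in that order.

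The promoter windows below are shown because the deletion concerns the control of Il2ra, because Il15ra is its neighbour on chromosome 2, and because Il7r was the member called higher in regulatory T-like cells. They run from 250 bases before to 50 bases after a transcription start in the RefSeq table (build GRCm38.p6), on the strand of the gene, and 7 of the 8 members had an entry. Capitals mark a match to the NF-kappaB consensus in Il2ra and to the STAT motif TTCNNNGAA in Il7r. These and the TATA box TATAAA were searched on both strands.
Il2ra, chr2:11642542-11642841, plus strand: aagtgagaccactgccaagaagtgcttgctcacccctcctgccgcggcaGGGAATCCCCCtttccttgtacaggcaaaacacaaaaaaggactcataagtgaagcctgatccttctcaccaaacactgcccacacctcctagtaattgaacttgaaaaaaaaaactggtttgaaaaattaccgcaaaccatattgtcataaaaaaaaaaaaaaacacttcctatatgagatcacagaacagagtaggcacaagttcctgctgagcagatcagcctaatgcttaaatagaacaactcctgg
Il15ra, chr2:11705043-11705342, plus strand: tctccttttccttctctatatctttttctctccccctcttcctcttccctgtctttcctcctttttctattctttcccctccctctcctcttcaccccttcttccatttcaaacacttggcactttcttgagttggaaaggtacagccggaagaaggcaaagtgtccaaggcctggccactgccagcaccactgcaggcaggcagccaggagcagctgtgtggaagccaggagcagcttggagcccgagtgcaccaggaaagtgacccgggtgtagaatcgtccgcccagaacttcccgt
Il7r, chr15:9529827-9530126, minus strand: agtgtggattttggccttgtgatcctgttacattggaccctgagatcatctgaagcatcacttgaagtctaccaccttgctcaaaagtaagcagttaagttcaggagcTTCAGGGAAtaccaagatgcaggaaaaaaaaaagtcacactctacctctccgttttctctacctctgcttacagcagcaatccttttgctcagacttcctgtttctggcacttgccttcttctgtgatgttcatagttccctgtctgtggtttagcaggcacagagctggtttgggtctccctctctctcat
The Il2ra match begins 201 bases before the start and holds 3 overlapping matches counted over both strands. The Il7r match begins 142 bases before the start. The motif TTCNNNGAA, not the matched sequence, is its own reverse complement, so the match counts on both strands. Among all 32851 promoter windows of that length, 8.46% hold the NF-kappaB consensus, 8.30% the STAT motif and 13.6% the TATA box, which 0 of the members' windows hold. Il4ra was the other member with the NF-kappaB consensus, and no other member had the STAT motif. The Il15ra window shown, which is 1 of its entries, holds none of the 3.

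Il2ra RNA was concentrated in lymphoid cells. Il2ra encodes the alpha chain of the interleukin 2 receptor, and the gene lies at chr2:11642807-11693193 on the plus strand (GENCODE vM21, GRCm38). Dermal gamma delta T-like cells, the interleukin 17 producing T cells of mouse dermis, had the highest mean level over libraries among the 23 CD45+ classes. Their Il2ra level was 492 CPM in UP_Del_Alopecia, 725 CPM in UP_Del_No_Alopecia and 792 CPM in WT. Regulatory T-like cells came next with 393, 386 and 939 CPM in the same order, so that the 2 classes change places in WT. Unnamed cluster L11, whose leading genes include Pdgfa and Gzmc, had 310, 367 and 443 CPM. Type 2 innate lymphoid-like (ILC2-like) cells had 247, 188 and 318 CPM. The ranges of the first 4 classes over the libraries overlap between neighbours, so their order is not fixed beyond that spread. CD4 T-like cells had 52.3, 66.7 and 91.3 CPM, CD8 T-like cells 25.9, 39.0 and 54.8 CPM, and dendritic epidermal T-like cells, the resident T cells of the epidermis, 50.4, 51.1 and 72.2 CPM. Fibroblast-like cells, a class without this receptor, were at 5.89, 6.26 and 6.49 CPM in those libraries.

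**Figure D1:**
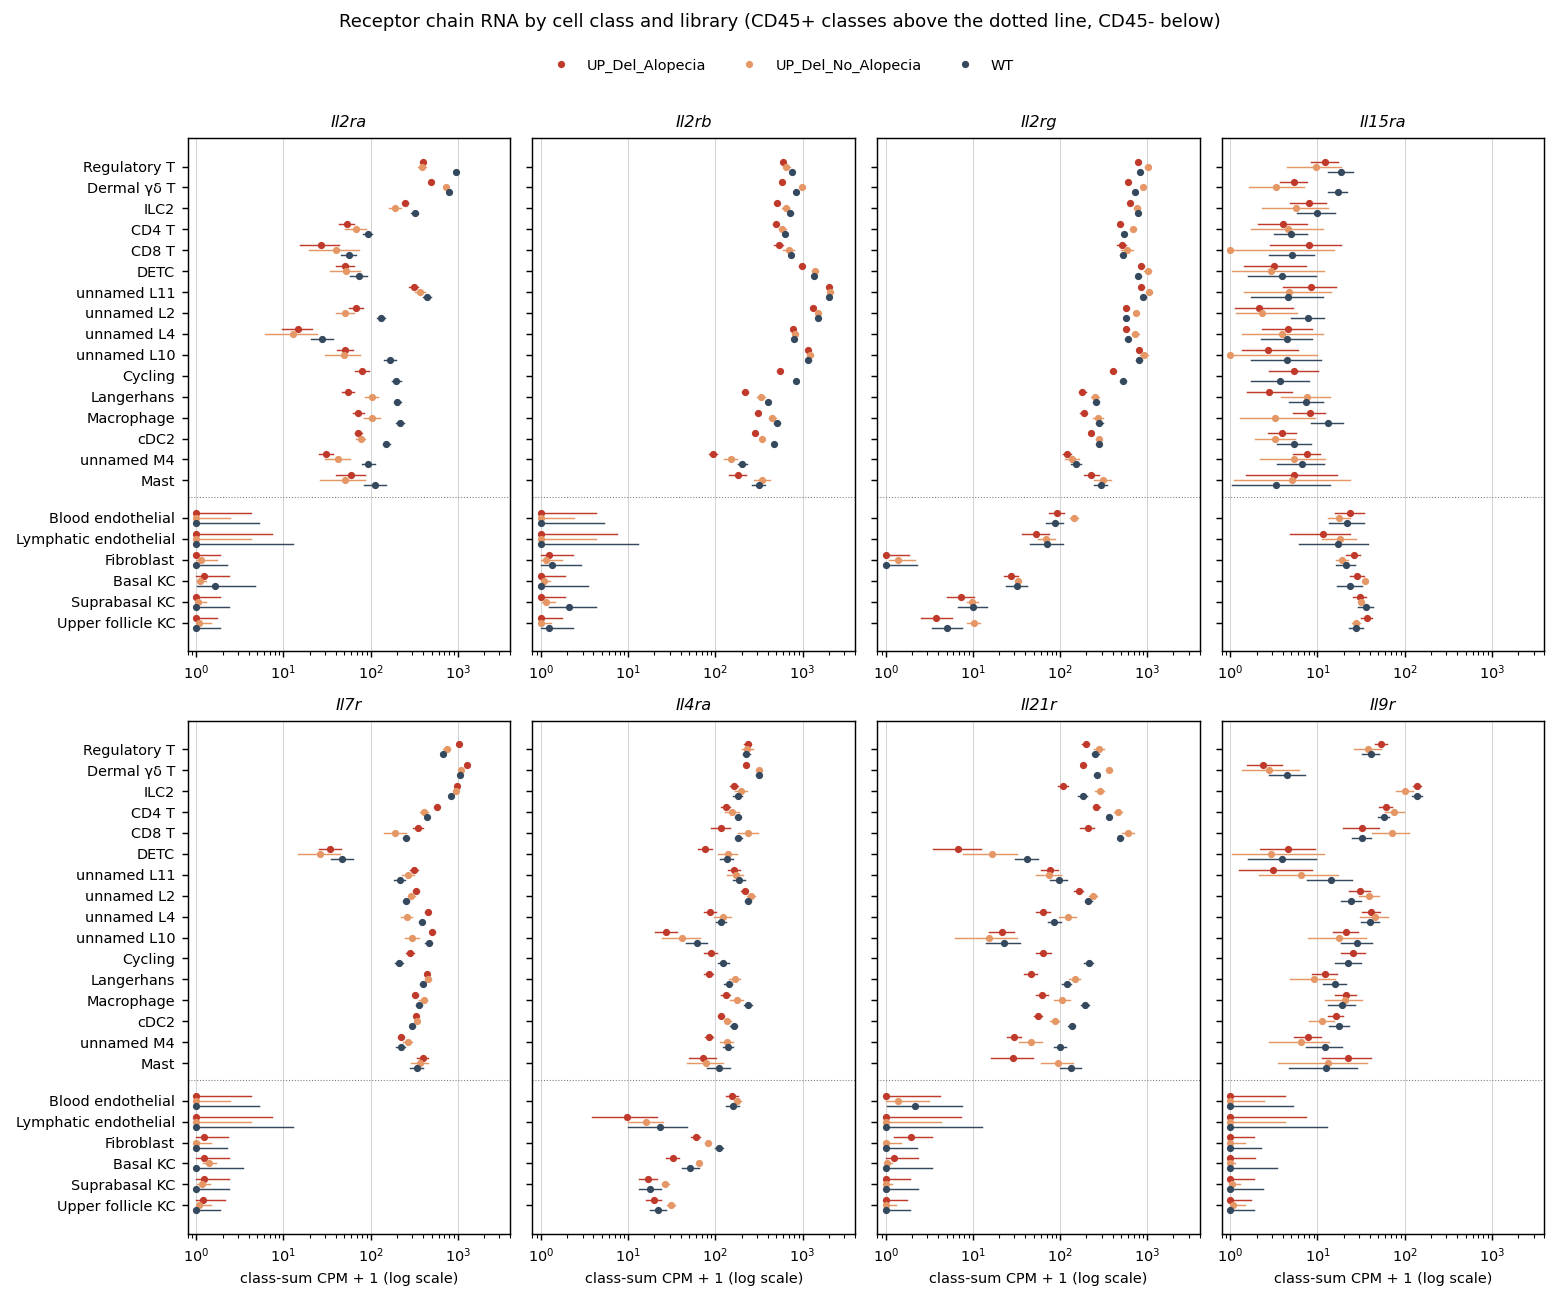
Level of each receptor gene as class-sum CPM + 1 (log axis) in 16 classes of the CD45+ sort (above the dotted line) and 6 of the CD45- sort (below it), with 1 point per library and lines for exact Poisson intervals; DETC, cDC2 and KC stand for dendritic epidermal T-like, type 2 conventional dendritic-like and keratinocyte-like. Il2ra in regulatory T-like cells lies at 393 and 386 CPM in UP_Del_Alopecia and UP_Del_No_Alopecia and at 939 CPM in WT.

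Over the whole CD45+ sort, Il2ra had 132 CPM (5977 UMIs) in UP_Del_Alopecia, 148 CPM (2891 UMIs) in UP_Del_No_Alopecia and 236 CPM (8583 UMIs) in WT. Both UP_Del libraries were below WT, by 1.80-fold with alopecia (log2 ratio -0.85, interval -0.89 to -0.80) and by 1.60-fold without it (-0.68, interval -0.74 to -0.62). The UP_Del libraries differed from each other by -0.17 (interval -0.23 to -0.11), which is not called. In such a sum, fewer cells of a type and less RNA per cell cannot be told apart. With every class weighted as in WT, the ratios to WT were -0.94 with alopecia and -0.59 without it. The Il2ra level checks the labels only in part, because the deletion removes an upstream enhancer and leaves the gene itself. Il21r was the other member called over the whole sort. Of the 8 members, 1 was called lower with alopecia against no alopecia (Il21r), 2 lower with alopecia against WT (Il2ra and Il21r) and 1 lower without alopecia against WT (Il2ra), and none was called higher. Among all genes tested, 7.39%, 5.59% and 7.78% were called lower and 10.3%, 10.7% and 9.61% higher in these 3 comparisons.

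Regulatory T-like cells, the FoxP3-expressing suppressors of other T cells, held less Il2ra RNA in both UP_Del libraries than in WT. Their 759 cells of UP_Del_Alopecia gave 993 Il2ra UMIs (393 CPM, interval 369 to 419), the 221 cells of UP_Del_No_Alopecia gave 313 (386 CPM, interval 345 to 432), and the 527 cells of WT gave 1855 (939 CPM, interval 897 to 983). The UP_Del intervals overlap each other and lie below that of WT. Il2ra was 2.39-fold lower with alopecia (log2 ratio -1.26, interval -1.37 to -1.14) and 2.43-fold lower without it (-1.28, interval -1.46 to -1.11) against WT. Alopecia against no alopecia gave 0.03 (interval -0.16 to 0.21). When only cells of the class with a Foxp3 UMI were kept, the ratios were -1.24 with alopecia and -1.20 without it against WT, and -0.04 between the UP_Del libraries. The class split into 2 clusters at a finer resolution, and in the larger one Il2ra stood at 461, 444 and 1059 CPM. The smaller one had 263, 271 and 472 CPM, so both clusters were lower in the UP_Del libraries.

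Il7r was higher with alopecia in the same cells. It encodes the alpha chain of the interleukin 7 receptor and had 1016 CPM (2564 UMIs) in regulatory T-like cells of UP_Del_Alopecia, 741 CPM (600 UMIs) in UP_Del_No_Alopecia and 674 CPM (1331 UMIs) in WT. The alopecia library was above WT by 1.51-fold (0.59, interval 0.50 to 0.69), close to the threshold, and above the library without alopecia by 0.46 (interval 0.33 to 0.59), which is not called. Without alopecia, Il7r differed from WT by 0.14 (interval -0.00 to 0.28). The finer clusters of the class had 1120, 822 and 693 CPM in the larger and 812, 558 and 610 CPM in the smaller one. Il2rb had 590, 653 and 748 CPM, Il2rg 784, 1016 and 834 CPM, Il4ra 233, 232 and 226 CPM, and Il21r 197, 276 and 254 CPM in these cells. None of those 4 genes was called in any of the 3 comparisons. In regulatory T-like cells, 0 members were called with alopecia against no alopecia, where 8.1% of tested genes were lower and 11.2% higher. Against WT, 2 members were lower (Il2ra and Il15ra) and 1 higher (Il7r) with alopecia, where 5.69% of tested genes were lower and 7.62% higher. The same 2 were lower without alopecia, where the background was 9.98% lower and 9.06% higher.

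At equal depth the difference in Il2ra lay in the share of cells and in the UMIs per cell. For this, 1000 UMIs were drawn from each cell, and 19, 6 and 7 shallower regulatory T-like cells were left out. An Il2ra UMI was then found in 30.5% of 740 cells of UP_Del_Alopecia (exact binomial interval 27.2% to 34.0%), 25.1% of 215 cells of UP_Del_No_Alopecia (19.5% to 31.5%) and 47.9% of 520 cells of WT (43.5% to 52.3%). Before thinning the shares were 56.5%, 56.1% and 77.8%. Cells with a UMI held 1.34, 1.54 and 1.82 Il2ra UMIs on average. Fibroblast-like cells gave 0.575%, 0.433% and 1.08% after thinning, with median depths of 3106, 3472 and 4144.5 UMIs against 3019, 3386 and 3357 UMIs in regulatory T-like cells. For Il7r, the thinned shares in regulatory T-like cells were 55.8%, 50.2% and 40.6%. Regulatory T-like cells with a UMI of all 3 chains, Il2ra, Il2rb and Il2rg, made up 6.49% (interval 4.82% to 8.51%), 10.2% (6.52% to 15.1%) and 12.5% (9.78% to 15.7%).

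**Figure D2:**
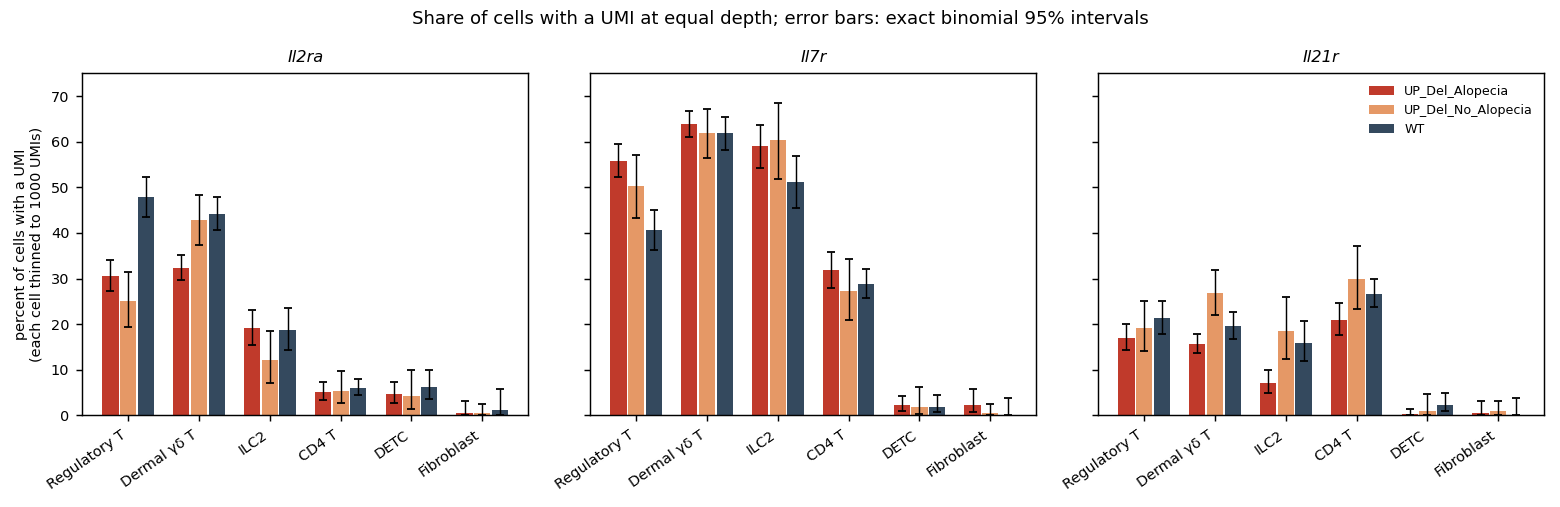
Percent of cells with at least 1 UMI of Il2ra, Il7r or Il21r after thinning to 1000 UMIs per cell, as bars by class and library with exact binomial intervals. Il2ra was found in 30.5% and 25.1% of regulatory T-like cells of UP_Del_Alopecia and UP_Del_No_Alopecia and in 47.9% in WT.

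Dermal gamma delta T-like cells showed a different order of groups. Their 1185, 327 and 727 cells gave 2462, 1226 and 2721 Il2ra UMIs, which is 492 CPM (interval 472 to 511) in UP_Del_Alopecia, 725 CPM (685 to 767) in UP_Del_No_Alopecia and 792 CPM (763 to 823) in WT. The alopecia library was 1.61-fold below WT (log2 ratio -0.69, interval -0.77 to -0.61) and 1.48-fold below the library without alopecia (-0.56, interval -0.66 to -0.46), which is just under the threshold. Without alopecia the ratio to WT was -0.13 (interval -0.23 to -0.03). Il2rb, the beta chain, had 575, 998 and 842 CPM and was 1.74-fold lower with alopecia against no alopecia (-0.80, interval -0.88 to -0.71). Il2rg had 607, 905 and 732 CPM, with -0.58 (interval -0.67 to -0.49) between the UP_Del libraries, at a fold of 1.49. Il7r was high in all 3 libraries, at 1267, 1076 and 1057 CPM, and was not called. Of the members, 2 were lower (Il2rb and Il21r) and 1 higher (Il15ra) with alopecia against no alopecia, where 6.31% of tested genes were lower and 16.1% higher. Against WT, 2 were lower with alopecia (Il2ra and Il15ra; background 6.49% lower, 7.91% higher) and 1 without it (Il15ra; background 13.4% lower, 5.68% higher).

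The class holds 3 clusters that differ in receptor RNA and occur in different shares. Cluster L3, with Tcrg-V6 and Il17a among its leading genes, made up 35.3%, 32.4% and 71.1% of the class in UP_Del_Alopecia, UP_Del_No_Alopecia and WT. Cluster L7, led by Hspa1a and Sox13, made up 39.2%, 15.9% and 20.9%. Cluster L9, with Tcrg-V4 and Il17f among its leading genes, made up 25.6%, 51.7% and 7.98%. Not all these genes set the clusters apart in every library. Tcrg-V6 had 451, 503 and 398 CPM in L3 and 236, 247 and 450 CPM in L7. Il17a had 1383, 1374 and 1530 CPM in L3 and 1452, 1163 and 1800 CPM in L9. Tcrg-V4 had 91.4, 103 and 54.7 CPM in L7 and 82.9, 133 and 59.8 CPM in L9. Il2ra stood at 803, 1155 and 943 CPM in L3, at 189, 191 and 261 CPM in L7 and at 465, 565 and 689 CPM in L9. L7 was the lowest of the 3 clusters in Il2ra in every library, and also in Il2rb (94.2, 140 and 92.2 CPM, against 808, 1139 and 1018 CPM in L3). Il7r ran otherwise, with 1529, 1072 and 1262 CPM in L7 and 1029, 859 and 1016 CPM in L3. Within L3 the Il2ra ratios were -0.23 (interval -0.33 to -0.14) with alopecia and 0.29 (0.17 to 0.41) without it against WT, and -0.52 (-0.66 to -0.39) between the UP_Del libraries. With the 3 clusters weighted as in WT, Il2ra stood at 657, 920 and 792 CPM, and the ratio of alopecia to WT was -0.27, which is no longer called. The Il2rb ratio of alopecia to no alopecia was -0.48 under that weighting, also no longer called. Hspa1a, a heat-shock gene that dissociation can induce, leads L7, and its part in these values was not tested.

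**Figure D3:**
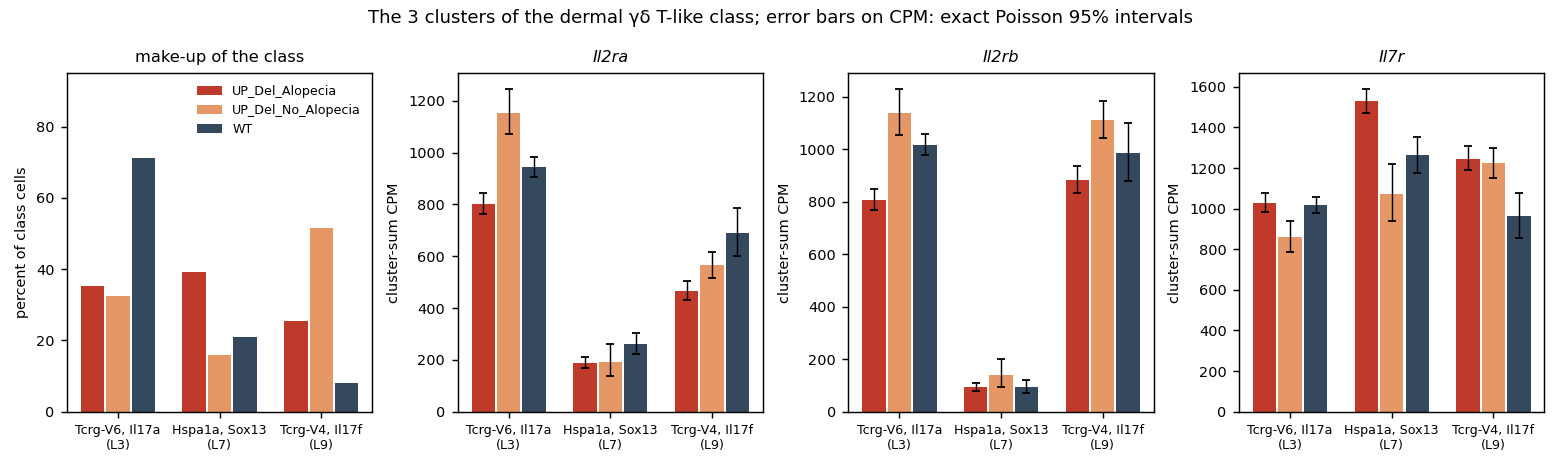
The 3 clusters of dermal gamma delta T-like cells by library: bars give their share of the class (percent of cells) and the Il2ra, Il2rb and Il7r levels (CPM, with exact Poisson intervals). L7 makes up 39.2% of the class in UP_Del_Alopecia and is the lowest of the 3 in Il2ra, at 189 CPM there.

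At equal depth, dermal gamma delta T-like cells had an Il2ra UMI in 32.3%, 42.8% and 44.2% of thinned cells, and in 64.2%, 74.6% and 80.1% before thinning. All 3 chains were found together in 6.90% of thinned cells in UP_Del_Alopecia (interval 5.51% to 8.52%), 15.7% in UP_Del_No_Alopecia (11.9% to 20.1%) and 14.3% in WT (11.8% to 17.1%). The alopecia interval lies below the other 2 intervals, which cover counting error only. In these shares the 3 clusters of the class were left as found in each library, and the part of that make-up was not tested. These cells held 41.2%, 42.4% and 31.7% of all Il2ra UMIs of the CD45+ sort, and made up 13.4%, 10.1% and 11.5% of its cells. Regulatory T-like cells held 16.6%, 10.8% and 21.6% of Il2ra UMIs and made up 8.59%, 6.84% and 8.36% of the cells.

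Il2ra was also below WT in other lymphoid classes. ILC2-like cells, the innate source of type 2 cytokines, had Il2ra ratios of -0.76 (interval -1.02 to -0.50) without alopecia and -0.36 (-0.54 to -0.18) with it against WT, of which the first is called. Between the UP_Del libraries the ratio was 0.39 (0.14 to 0.66). The 86, 32 and 81 ILC2-like cells without a T-cell receptor UMI were too few for a ratio. Il2ra stood there at 260, 230 and 270 CPM with overlapping intervals (208 to 320, 162 to 317 and 217 to 331). The level without alopecia was again below WT, but these counts are too few to say whether the call holds there. CD4 T-like cells were called lower with alopecia (-0.80, interval -1.14 to -0.48), and CD8 T-like cells as well (-1.08, interval -1.97 to -0.29). Without alopecia, CD4 T-like cells gave -0.45 (interval -0.89 to -0.04), and the 57 CD8 T-like cells of that library were too few for a ratio. Unnamed cluster L10, whose leading genes include Gzmc and Xcl1, had 50.2, 47.9 and 166 CPM, with -1.73 (interval -2.13 to -1.34) for alopecia against WT. Dendritic epidermal T-like cells gave -0.52 and -0.50 against WT with and without alopecia, and neither is called.

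Among classes with 100 or more cells on both sides, Il2ra was called lower with alopecia against WT in 13 of 18 CD45+ classes, and lower without alopecia against WT in 9 of 13. It was called lower with alopecia against no alopecia in 1 of 13, and higher in none of the 3 comparisons. Of the genes tested in at least as many classes, 0.347% were called lower with alopecia against WT as often as Il2ra, which is 17 of 4893 genes. Without alopecia against WT that share was 0.42%, or 18 of 4290. In lymphoid classes Il2ra was called lower in 7 of 10 with alopecia and 4 of 7 without it, and in the myeloid and mast cell classes in 5 of 5 and 5 of 5.

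Most Il2ra RNA of the myeloid and mast cell classes lay in cells that also held T-cell RNA. T-cell receptor complex UMIs (11 genes such as Cd3e and Trac) were found in 62.5%, 70.1% and 73.3% of Langerhans-like cells, in 69.3%, 76.8% and 83.7% of macrophage-like cells and in 69.6%, 74.1% and 81.1% of type 2 conventional dendritic-like cells. Langerhans-like cells had 53.8, 102 and 202 CPM of Il2ra in all, and 73.7, 128 and 245 CPM in the cells with 3 or more such UMIs. Summed over the class, T-cell receptor RNA stood at 1679, 1888 and 1797 CPM in Langerhans-like and at 1954, 2304 and 2345 CPM in macrophage-like cells. The 129, 43 and 66 Langerhans-like cells without such a UMI held 2, 0 and 0 Il2ra UMIs. Macrophage-like cells had 71.5, 103 and 217 CPM in all, and 3, 0 and 7 Il2ra UMIs in the 174, 36 and 44 cells without T-cell receptor UMIs. Type 2 conventional dendritic-like cells had 71.3, 75.7 and 151 CPM in all and 8.13, 8.71 and 39.5 CPM without such UMIs. Mast-like cells had 58.5, 49.2 and 111 CPM of Il2ra in all, and 3, 1 and 0 Il2ra UMIs in the 134, 49 and 64 cells without such UMIs, at a T-cell receptor level of 1748, 1844 and 1809 CPM over the class. The T-cell receptor UMIs also stood in 80.6%, 77.3% and 73.4% of ILC2-like cells, but there the cells without them held 88, 37 and 92 Il2ra UMIs. Langerhans-like Il7r likewise stood at 414, 196 and 361 CPM in the cells without such UMIs, against 445, 454 and 396 CPM in all. The part of T-cell RNA in the ratios of the myeloid and mast cell classes was not tested.

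**Figure D4:**
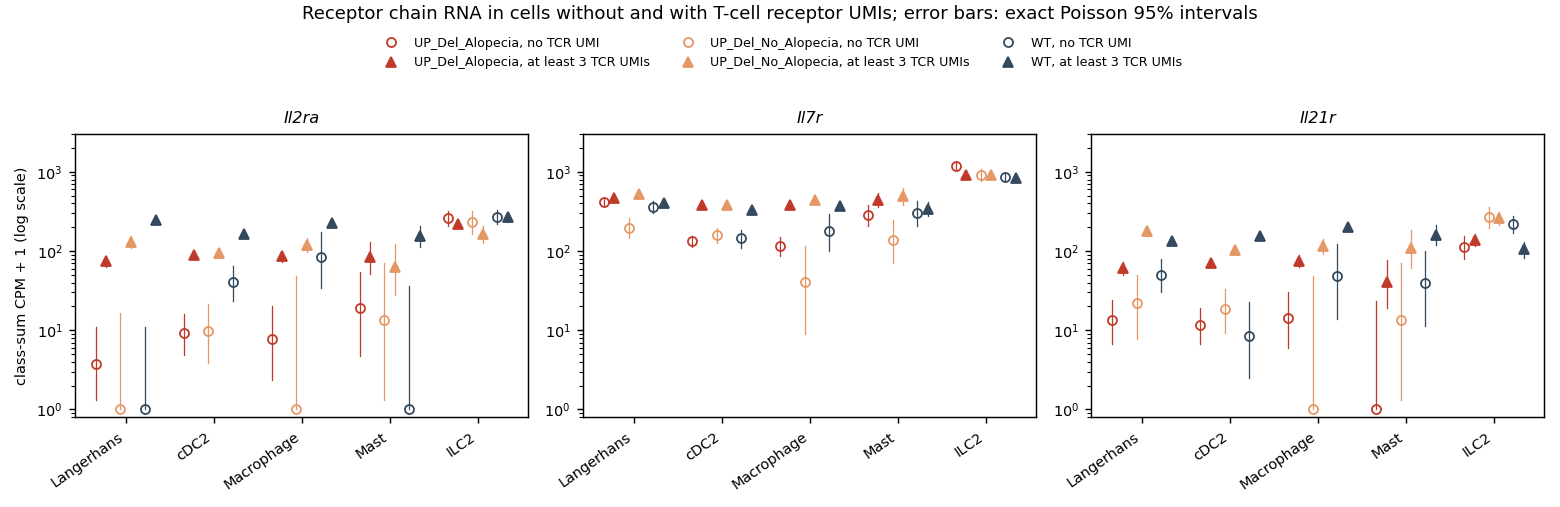
Il2ra, Il7r and Il21r as class-sum CPM + 1 (log axis) in 5 classes of the CD45+ sort, with open circles for cells without a T-cell receptor complex UMI, triangles for cells with at least 3, and lines for exact Poisson intervals. Langerhans-like Il2ra is at 73.7, 128 and 245 CPM in the cells with at least 3 such UMIs and rests on 2, 0 and 0 UMIs in the cells without one, while ILC2-like Il2ra is at 260, 230 and 270 CPM without one.

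Il15ra, the alpha chain of the interleukin 15 receptor, lies at chr2:11705290-11734317 on the same strand, 12.1 kb beyond the end of Il2ra. It was scarce in leukocytes: over the CD45+ sort it had 7.37 CPM (335 UMIs), 7.93 CPM (155 UMIs) and 10.0 CPM (363 UMIs), and no ratio was called. Dermal gamma delta T-like cells held 22, 4 and 55 Il15ra UMIs, or 4.39, 2.37 and 16.0 CPM. That is 3.65-fold lower with alopecia (-1.87, interval -2.65 to -1.13) and 6.77-fold lower without it (-2.76, interval -4.68 to -1.32) against WT. The ratio between the UP_Del libraries was 0.89, with an interval of -0.67 to 2.89 that spans 0. Within cluster L3 the counts were 12, 2 and 52 UMIs and both ratios to WT were called lower, at -1.70 (interval -2.74 to -0.77) and -2.65 (-5.73 to -0.72). Regulatory T-like cells held 28, 7 and 35 Il15ra UMIs, and their called ratios to WT, -0.68 with alopecia and -1.04 without it, have intervals that span 0 (-1.45 to 0.08 and -2.45 to 0.16). The highest Il15ra level of the CD45+ sort was in migratory dendritic-like cells, which reached 50 cells only in UP_Del_Alopecia (66.6 CPM, 39 UMIs in 79 cells). Fibroblast-like cells of that sort had 30.9, 30.3 and 47.6 CPM.

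The other genes near Il2ra were not called over the whole CD45+ sort. Of 13 annotated genes within 250 kb, 7 are in the matrix, and besides Il15ra these include Rbm17, a splicing factor, and Pfkfb3, a regulator of glycolysis. No ratio of the 6 neighbours with at least 20 UMIs passed the fold in that sort as a whole. Rbm17, 38.7 kb away, had 49.8, 52.1 and 49.8 CPM. Pfkfb3 was called higher with alopecia against no alopecia in CD4 T-like cells (1.27, interval 0.47 to 2.17; 88 and 15 UMIs) and in regulatory T-like cells (0.80, interval 0.08 to 1.59; 103 and 19 UMIs). Without alopecia against WT it was called lower in CD4 T-like cells (-1.09, interval -1.97 to -0.32; 15 and 138 UMIs). In dermal gamma delta T-like cells Rbm17 had ratios of 0.01 with alopecia and 0.12 without it against WT. In regulatory T-like cells Fbh1, a DNA helicase 49.4 kb beyond Il2ra, was called higher against WT both with alopecia (0.88, interval 0.10 to 1.71; 47 and 20 UMIs) and without it (1.36, interval 0.40 to 2.32; 21 and 20 UMIs).

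Il2rb RNA, the chain shared by the receptors for interleukins 2 and 15, was high in clusters L11 and L2 and in NK-like and dendritic epidermal T-like cells. Cluster L11 had 1999, 2081 and 2026 CPM in UP_Del_Alopecia, UP_Del_No_Alopecia and WT, with intervals that overlap among the groups. NK-like cells, present with at least 50 cells only in UP_Del_Alopecia, had 1497 CPM. Cluster L2, with the NK receptor gene Klra1 among its leading genes, had 1329, 1502 and 1513 CPM, and dendritic epidermal T-like cells 972, 1385 and 1359 CPM. The ratio was below 0 with alopecia against no alopecia in 13 of 13 classes, of which 5 were called, and with alopecia against WT in 18 of 18, of which 7 were called. Over all gene and class pairs, 8.49% and 8.14% were called lower in the same order. In lymphoid classes against WT the ratio ran from -0.55 to -0.02 and 0 of 10 were called, while 5 of 5 myeloid and mast cell classes were. Langerhans-like cells, 1 of those classes, had 217, 333 and 402 CPM of Il2rb in all, but 7, 0 and 5 Il2rb UMIs in the cells without T-cell receptor UMIs. In the M4 cells without such UMIs the Il2rb ratio to WT with alopecia was 0.70 (interval -1.09 to 3.11; 17 and 3 UMIs), on the other side of 0. Over the whole CD45+ sort Il2rb stood at 459, 600 and 671 CPM, with -0.39 and -0.55 for alopecia against no alopecia and against WT.

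Il2rg, the common gamma chain itself on chromosome X, was found in every lymphoid class named here. L11 had 857, 1053 and 900 CPM, dendritic epidermal T-like cells 856, 1013 and 793 CPM and ILC2-like cells 632, 755 and 788 CPM. With alopecia against WT 1 of 18 classes was called lower, in macrophage-like cells (-0.59, interval -0.78 to -0.40). The share over all gene and class pairs was 8.14%. With alopecia against no alopecia the ratio was below 0 in 13 of 14 classes, and 1 class was called lower and 1 higher. Over all gene and class pairs, 8.49% were called lower and 14% higher. In the 7 lymphoid classes it ran from -0.58 to -0.24 and 0 were called. Fibroblast-like cells were the class called higher (0.82), on an interval that spans 0. Suprabasal keratinocyte-like cells were the class called lower (-1.05, interval -1.34 to -0.75), with 60.6 CPM against 125 CPM. T-cell receptor UMIs were at 357 and 1074 CPM in those same cells.

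**Figure D5:**
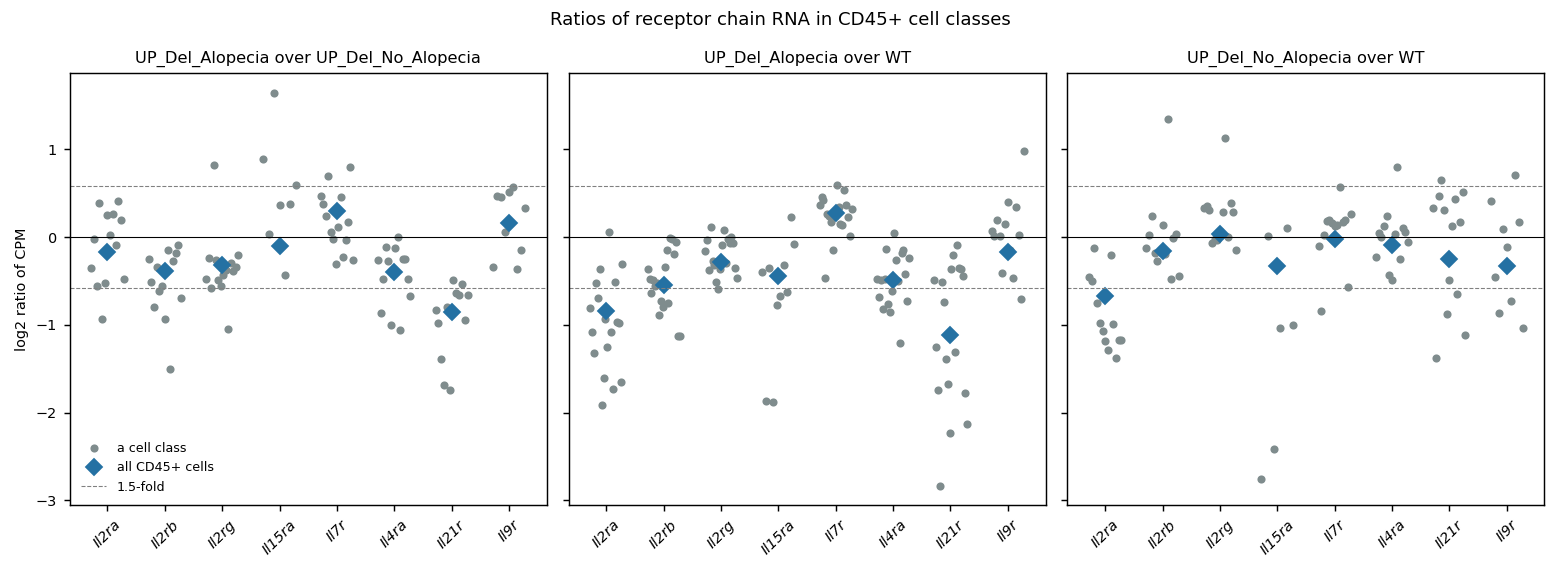
Log2 ratios of CPM for each receptor gene in the 3 comparisons, with 1 grey point per CD45+ class, a blue diamond for all CD45+ cells and dashed lines at 1.5-fold. The Il2ra points lie mostly below the lower dashed line in both ratios to WT, and the Il21r points do so with alopecia against no alopecia, at 10 of 12 classes.

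Il7r, needed by lymphocytes for survival on interleukin 7, had its highest mean over libraries in dermal gamma delta T-like cells. ILC2-like cells had 977, 940 and 827 CPM, below regulatory T-like cells in UP_Del_Alopecia and above them in the other libraries. CD4 T-like cells had 569, 412 and 442 CPM and CD8 T-like cells 348, 191 and 253 CPM. It was low in dendritic epidermal T-like cells (33.1, 25.6 and 45.8 CPM) and in the NK-like cells of UP_Del_Alopecia (16.8 CPM). With alopecia against WT the ratio was above 0 in 16 of 18 classes, but regulatory T-like cells were the 1 class called. With alopecia against no alopecia it was called higher in 2 of 14 classes, one being unnamed lymphoid cluster L4 (0.80, interval 0.56 to 1.04; 448 and 258 CPM). The other was fibroblast-like cells, on an interval of -0.44 to 1.84. Over all gene and class pairs, 9.76% were called higher with alopecia against WT and 14% against no alopecia. Over the whole CD45+ sort Il7r had 473, 384 and 390 CPM, and no ratio was called.

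Il21r, the receptor for the T-helper cytokine interleukin 21, separated the alopecia library from both others. CD8 T-like cells had 206 CPM (interval 171 to 246) in UP_Del_Alopecia, 605 CPM (513 to 708) in UP_Del_No_Alopecia and 489 CPM (459 to 521) in WT. CD4 T-like cells had 260, 461 and 366 CPM, dermal gamma delta T-like cells 184, 362 and 262 CPM, and ILC2-like cells 108, 283 and 181 CPM. The alopecia value is the lowest of the 3 in each of these classes. With alopecia against no alopecia, Il21r was called lower in 10 of 12 classes, among them ILC2-like (-1.39, interval -1.66 to -1.12), dermal gamma delta T-like (-0.98, interval -1.13 to -0.83) and CD4 T-like cells (-0.83, interval -1.02 to -0.63). Of the genes tested in at least 12 classes, 0.323% were called lower in at least 10 of them, which is 23 of 7115. With alopecia against WT it was called lower in 10 of 18 classes (8.14% of all gene and class pairs) and lay below 0 in all 18. In lymphoid classes these counts were 4 of 6 against no alopecia and 3 of 10 against WT. In the myeloid and mast cell classes they were 5 of 5 in both comparisons, and there Il21r too was scarce in cells without T-cell receptor UMIs, with 9, 5 and 18 UMIs in Langerhans-like and 6, 0 and 4 in macrophage-like cells. In unnamed myeloid cluster M4, whose 475, 100 and 157 cells without such UMIs allow a ratio, Il21r was called lower there with alopecia against WT (-1.80, interval -3.08 to -0.52; 12 and 12 UMIs). Regulatory T-like cells were the lymphoid class with the smallest difference from no alopecia, at -0.49 (interval -0.72 to -0.26). Dendritic epidermal T-like cells held few Il21r UMIs, 8, 8 and 42, with -2.83 (interval -4.13 to -1.72) for alopecia against WT.
At equal depth, Il21r was found in 19.1%, 43.9% and 34.6% of thinned CD8 T-like cells and in 7.05%, 18.4% and 15.9% of thinned ILC2-like cells. In ILC2-like cells without a T-cell receptor UMI it stood at 112, 267 and 217 CPM. Over the whole CD45+ sort Il21r had 84.1, 153 and 182 CPM and was 1.81-fold lower with alopecia against no alopecia (-0.86, interval -0.93 to -0.79). It was 2.16-fold lower against WT (-1.11, interval -1.17 to -1.05). With every class weighted as in WT, the alopecia ratios were -0.97 against no alopecia and -0.80 against WT. Without alopecia against WT, the ratio went from -0.25 to 0.17 under that weighting.

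Il4ra, which pairs with Il2rg or Il13ra1 to receive interleukins 4 and 13, was found in lymphoid, myeloid and skin cells alike. Dermal gamma delta T-like cells had 225, 314 and 313 CPM, cluster L2 215, 255 and 238 CPM, and macrophage-like cells 130, 174 and 234 CPM. Macrophage-like cells without T-cell receptor UMIs had 97.8, 130 and 250 CPM (44, 10 and 21 UMIs), so the order of the groups was the same there. With alopecia it was called lower in dendritic epidermal T-like cells, both against no alopecia (-0.86, interval -1.31 to -0.41) and against WT (-0.82, interval -1.20 to -0.44). With alopecia it was called lower in 4 of 14 classes against no alopecia and in 7 of 18 against WT. Over all gene and class pairs, 8.49% and 8.14% were called lower in the same order. Against WT, Il4ra was called in 3 of 10 lymphoid and 4 of 5 myeloid and mast cell classes. In M4 cells without T-cell receptor UMIs it was called lower against no alopecia (-0.87, interval -1.31 to -0.40). Against WT it was not called there (-0.40, interval -0.88 to 0.10). Il4ra was not called lower in any of 13 classes without alopecia against WT.

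Il9r, the receptor chain for interleukin 9, was highest in ILC2-like cells, with 138, 99.4 and 136 CPM (300, 84 and 217 UMIs). CD4 T-like cells had 59.3, 75.2 and 56.5 CPM and regulatory T-like cells 52.7, 37.0 and 40.0 CPM. Dermal gamma delta T-like cells held 7, 3 and 12 Il9r UMIs, which is near the level of the floor of 3 counts. ILC2-like cells gave ratios of 0.47 (interval 0.12 to 0.84) between the UP_Del libraries and 0.02 (-0.24 to 0.27) with alopecia against WT, and neither is called.

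Taking all 8 members and CD45+ classes as pairs, 21 of 96 pairs were called lower and 6 higher with alopecia against no alopecia, where the background over all genes was 8.49% lower and 14% higher. With alopecia against WT, 44 of 131 were lower and 2 higher (background 8.14% and 9.76%), and without alopecia against WT 21 of 93 were lower and 5 higher (background 11.3% and 8.98%). The pairs share cells of the same libraries and, in the myeloid classes, T-cell RNA, so they are not separate measurements. The comparisons also share libraries.

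In the CD45- sort the receptor genes of skin and vessel cells were Il4ra, Il15ra and Il2rg. Blood endothelial-like cells had 155, 178 and 158 CPM of Il4ra and 90.2, 144 and 86.0 CPM of Il2rg. Interfollicular basal keratinocyte-like cells had 31.3, 64.5 and 50.9 CPM of Il4ra, which was lower with alopecia against no alopecia (-1.04, interval -1.31 to -0.78) and against WT (-0.70, interval -1.12 to -0.27). Fibroblast-like cells had 58.5, 81.8 and 110 CPM of Il4ra, with -0.91 (interval -1.16 to -0.67) for alopecia against WT. Il15ra was found in keratinocyte-like classes, at 29.6, 30.5 and 34.8 CPM in suprabasal and 35.5, 26.9 and 26.8 CPM in upper follicle keratinocyte-like cells. Mural-like cells, counted only in UP_Del_No_Alopecia, had 47.1 CPM.
Il2ra was close to absent from this sort, with 2, 14 and 20 UMIs in all. Of the 20 in WT, 17 lay in 2 bulge or outer root sheath-like cells, and both of those cells also held T-cell receptor UMIs. The 12, 4 and 17 Il7r UMIs of that class lay in 1, 2 and 3 cells. Over members and CD45- classes, 11 of 28 pairs were called lower and 1 higher with alopecia against no alopecia, 7 and 2 of 24 with alopecia against WT, and 1 and 6 of 25 without alopecia against WT. The background was 9.54% lower and 9.87% higher, 7.8% and 8.23%, and 10.9% and 10.5% in the same order. In UP_Del_No_Alopecia 6.18% of CD45- barcodes were over the mitochondrial limit, against 27.4% in UP_Del_Alopecia and 22.3% in WT. Over the whole CD45- sort, 29.8% of genes were called with alopecia against no alopecia. Without alopecia against WT it was 31.7%, and with alopecia against WT 10.5%. The part of cell quality in these ratios was not tested.

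The ligand genes were found in lymphoid, mast, dendritic and skin cells. Il2, the growth factor of T cells, had 157, 91.0 and 95.5 CPM in CD4 T-like cells and 149, 129 and 92.9 CPM in CD8 T-like cells. Il4 was found in mast-like cells (325, 303 and 302 CPM) and Il13 in ILC2-like cells (380, 534 and 478 CPM). Il7 was highest in lymphatic endothelial-like cells of the CD45- sort (142, 136 and 115 CPM), and Il15 in migratory dendritic-like cells of UP_Del_Alopecia (90.5 CPM). Upper follicle keratinocyte-like cells of the CD45- sort had 41.9, 26.3 and 35.4 CPM of Il15. Tslp, a keratinocyte cytokine whose receptor combines Il7r with Crlf2, had 8.50, 19.9 and 60.8 CPM in basal keratinocyte-like cells. Over the whole CD45+ sort Tslp had 2.99, 2.97 and 1.65 CPM (136, 58 and 60 UMIs). It was called higher there against WT with alopecia (0.86, interval 0.41 to 1.32) and without it (0.84, interval 0.30 to 1.39). In that sort Il7 was called higher with alopecia against WT (0.92, interval 0.17 to 1.71, from 52 and 22 UMIs). Among all genes tested there, 10.7% were higher with alopecia against WT and 9.61% without it.

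The pathway list held 29 genes: ligands, partner chains, kinases, STAT factors and genes induced by these cytokines. In regulatory T-like cells, 0 of 19 tested were called higher and 3 lower with alopecia against WT, at a median log2 ratio of -0.15. Among them were Myc (-1.11), a growth factor target, and Il13, whose sums were 11 and 25 UMIs. With alopecia against no alopecia 3 of 18 were lower and 0 higher (median -0.20), and without alopecia against WT 1 of 19 was lower and 1 higher (median 0.03). Cish, a feedback inhibitor induced through STAT5, had 305, 389 and 392 CPM in regulatory T-like cells and 385, 463 and 438 CPM in dermal gamma delta T-like cells, and was not called. In dermal gamma delta T-like cells, 1 of 21 was higher and 2 lower with alopecia against WT (median -0.13). Stat5a, a factor downstream of interleukin 2, was 1 of the 2, with 53.7, 116 and 98.4 CPM and a ratio of -0.87. With alopecia against no alopecia 2 of 20 were higher and 3 lower in those cells (median -0.04), and without alopecia against WT 1 of 20 was higher and 1 lower (median -0.01). The shares of all genes called in these 2 classes stand beside the members' counts for each class. In dendritic epidermal T-like cells, 5 of 9 tested induced genes were lower and 0 higher with alopecia against WT (median -0.64). There 6.92% of all genes tested were lower and 13.1% higher. Without alopecia against WT 3 of 9 were lower and 1 higher (median -0.40), where the background was 11.1% lower and 10.9% higher. Over the whole CD45+ sort, Bcl2 of the induced genes was called higher with alopecia, at 0.81 against no alopecia and 0.62 against WT. Ccnd3 was called higher there against no alopecia (0.63) but not against WT (0.40). Myc (-0.50 and -0.30) and Stat5a (-0.44 and -0.52) were not called over that sort in either comparison.

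The genes whose levels followed each member most closely were found over the 23 CD45+ classes by Pearson's r of log2(CPM + 10). For Il2ra these were Fam110a (0.913), Areg (0.876) and Tnip1 (0.874). Il2rb and Il2rg were closest to each other or nearly so, at 0.960, and Acap1 followed Il2rg at 0.962. Il7r was followed by Gpr183 (0.897), Rasgrp1 (0.854) and Samsn1 (0.844). Il21r was followed by Gpr65 (0.901), Nr3c1 (0.900) and Skil (0.883), Il4ra by Msl2 (0.872), Il9r by Ubash3a (0.885) and Il15ra by Adcy6 (0.859). Between members, r was 0.705 for Il2ra with Il7r, 0.520 for Il2ra with Il2rb and -0.684 for Il2rb with Il15ra. The classes share libraries and depth, and these values describe 23 points only.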

How the data were processed

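The 6 libraries hold single cells of the CD45+ and CD45- sorts (10x Genomics 5' HT v2 kit) from skin of 3 groups, which were taken from the sample titles. The deposited values are the authors' raw counts of UMIs, and per the file headers they are whole numbers over 32285 genes. Per the submitters' processing notes they come from Cell Ranger 7.1.0 and build mm10. The annotation release and aligner settings are not given in the sources used here. Coordinates were taken from GENCODE vM21.

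Cells were kept at 500 or more UMIs, 300 or more genes and no more than 10% mitochondrial UMIs, and cells with the highest scores against simulated doublets were removed at 0.4% per 1000 barcodes. The filter removed 4.20%, 1.86% and 3.21% of CD45+ and 30.4%, 7.56% and 26.7% of CD45- barcodes (UP_Del_Alopecia, UP_Del_No_Alopecia and WT), and median depth was then 4045, 4828 and 4520 and 5730, 5414 and 4988 UMIs. Each sort was clustered over its 3 libraries without batch correction, on 2000 variable genes without the 8 receptor genes, with 30 principal components, 15 neighbours and Leiden resolution 1 (seed 0). Clusters were named from marker lists, by a scoring threshold set after the clusters were seen.

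Levels are class sums in CPM for classes of at least 50 cells. Ratios need 100 cells in both libraries and a summed count of at least 20. Intervals and ratios were tested on simulated data, drawn as independent counts, which is what the intervals assume. UMIs that gather in a few cells were not simulated, so the intervals were not tested for that case. Genes named beside the members are the neighbours within 250 kb, the pathway list, and the 3 genes most like each member among those of at least 50 CPM in a class, at a pseudocount of 10. The members, lists and rules were chosen with earlier results of these data known, and only part of the pathway and similar genes is printed. Alternatives were no cell filter, a mitochondrial limit of 5%, no or 0.8% doublet removal, other scalings, a mean over cells, Leiden resolution 2, Leiden seed 1, classes built from the markers found in single cells, cells without T-cell receptor UMIs, and no minimum count. Clustering used scanpy 1.11.5 with leidenalg 0.10.2 under Python 3.11.15. Intervals came from scipy 1.17.1, and arrays, tables and doublet neighbours from numpy 2.4.6, pandas 2.3.3 and scikit-learn 1.9.0. Plots were drawn with matplotlib 3.10.9.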

Additional observations from a re-analysis of the deposited data

Results flagged for a closer look

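Of the members, 3 genes had classes called in opposite directions in 1 comparison with intervals clear of 0, and the difference between the classes was not tested. Il21r without alopecia against WT was higher in ILC2-like cells (log2 ratio 0.65) and lower in dendritic epidermal T-like (-1.38), macrophage-like (-0.88) and type 2 conventional dendritic-like cells (-0.65) and in unnamed myeloid cluster M4 (-1.11). Il2rg in the CD45- sort with alopecia against no alopecia was higher in bulge or outer root sheath-like cells (1.67, from 8 and 12 UMIs) and lower in blood endothelial-like (-0.68) and upper follicle keratinocyte-like cells (-1.70). Il9r without alopecia against WT was higher in unnamed lymphoid cluster L2 (0.71) and lower in type 2 conventional dendritic-like cells (-0.72).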

How the results depend on the processing

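Of 438 alternative values of the 42 ratios, 399 moved by less than the counting error and 39 moved further. A change of sign was counted only for the 8 ratios called in the main run, and 0 of those changed sign. Among ratios that were not called, signs did change. Il2ra over all CD45+ cells with alopecia against no alopecia went from -0.17 to 0.03 with each cell weighing the same. Il2ra in dermal gamma delta T-like cells without alopecia against WT also changed sign. With the counts of pairs included, where a shift of 1.5 times is the limit, 441 stayed within it and 47 moved. Of 8 calls, 2 were lost and 7 alternative values gained one. The losses were both in dermal gamma delta T-like cells when the 3 clusters were weighted as in WT, an alternative chosen after seeing the data: Il2rb with alopecia against no alopecia (-0.48) and Il2ra with alopecia against WT (-0.27). That weighting also moved Il2rb with alopecia against WT (-0.30) and Il2ra without alopecia against WT (0.22). With each cell weighing the same, the ratios over all CD45+ cells for alopecia against no alopecia were 0.03 for Il2ra, -0.34 for Il2rb, -0.28 for Il2rg, 0.44 for Il7r, -0.26 for Il4ra and -0.75 for Il21r. With alopecia against WT they were -0.76 for Il2ra, -0.58 for Il2rb and 0.32 for Il7r, and without alopecia against WT -0.79 for Il2ra, -0.23 for Il2rb, -0.01 for Il2rg, -0.12 for Il7r, -0.20 for Il4ra and -0.34 for Il21r. In dermal gamma delta T-like cells they were -0.78 for Il2ra and -0.66 for Il2rb (then called) with alopecia and -0.26 for Il2ra without it against WT, and 12 and 3 pairs were called higher with alopecia against no alopecia and without alopecia against WT. Trimmed-mean scaling gave, with alopecia against no alopecia, -0.44 for Il2rb, -0.37 for Il2rg and 0.25 for Il7r, with 3 pairs higher, and with alopecia against WT -0.90 for Il2ra, -0.60 for Il2rb (then called), -0.34 for Il2rg, 0.22 for Il7r and -0.55 for Il4ra. It also gained calls in dermal gamma delta T-like cells with alopecia against no alopecia, for Il2ra (-0.64) and Il2rg (-0.65). With 0.8% doublets removed, Il2rb with alopecia against WT was -0.52. With Leiden seed 1, the dermal gamma delta T-like ratios were -0.83 for Il2ra (then called) and -0.93 for Il2rb with alopecia against no alopecia, -0.85 for Il2rb with alopecia against WT (then called), and 0.15 for Il2ra and 0.08 for Il2rb without alopecia against WT, with 1 pair higher in the last comparison. Leiden resolution 2 left 2 pairs higher there. With classes from marker UMIs of each cell, Il2rb in dermal gamma delta T-like cells with alopecia against WT was -0.62 and then called, Il2rg was -0.47 in dermal gamma delta T-like cells with alopecia against no alopecia, Il2rb 0.10 there without alopecia against WT, and Il2rg -0.20 in regulatory T-like cells with alopecia against WT. Under that choice 29 and 13 pairs were lower with and without alopecia against WT, and 2 higher without it. The cause of these shifts was not tested. Il2ra in regulatory T-like cells was called lower against WT under each alternative run, at -1.29 to -1.20 with alopecia and -1.32 to -1.20 without it. Cells without T-cell receptor UMIs reached 100 on both sides in a few classes only. In unnamed myeloid cluster M4 they gave, with alopecia against no alopecia, -0.96 for Il7r and -0.87 for Il4ra, and in type 2 conventional dendritic-like cells -0.71 for Il4ra, all called lower. Without alopecia against WT, Il7r in M4 was 1.00 and called higher.

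No paired analysis was possible because each group has 1 library per sort and the labels give no replicate numbers, and for the same reason there was no replicate to leave out. Depth limits Il9r, Il15ra in the CD45+ sort and the other members in the CD45- sort, which rest on few UMIs. Exceptions in the CD45- sort are Il4ra (877, 4518 and 774 UMIs), Il15ra (692, 2574 and 439) and Il2rg (343, 1954 and 211). Single classes can still hold few UMIs of these genes.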
